A study of Mus musculus with 6 samples.

Results

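The genes described here encode the machinery that moves cargo along microtubules and sets how microtubules grow, shrink and break: the dynein heavy chain Dync1h1, the dynein light chain Dynll1, the dynactin subunit Dctn1, the plus-end protein Mapre1, the destabilising protein Stmn1, the severing enzyme Katna1 and the lattice-binding protein Map4. They were chosen as motor, plus-end and severing proteins around HDAC6, by function and not by a threshold on their values. Earlier results of these data were known when the genes were chosen. On the arrays they had 17 probe sets, out of 22690 deposited, each annotated to 1 of these 7 genes alone. All 7 genes had at least 1 probe set, and 0 further probe sets named a member together with another gene.

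Transcript levels came from regulatory T cells of the mouse, CD4+CD25+ lymphocytes that hold immune responses in check, after magnetic separation. The groups were HDAC6 knockout mice, with 3 arrays, and wild-type mice of strain C57BL6, with 3 arrays. The samples were described as independent, and a strain was named only for wild type. The animals' age and sex, the form of the deleted allele and any pooling of animals were not given in the sources used here. The p-values measure the spread between these samples, which may be technical.

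HDAC6 is a mostly cytoplasmic deacetylase that removes acetyl groups from alpha-tubulin, and it binds dynein through which it carries ubiquitinated protein cargo toward the cell centre. Cytoplasmic dynein is a motor that walks toward microtubule minus ends. Dynactin links it to cargo and keeps it on its track. In T cells dynein also draws the microtubule-organising centre toward the contact with an antigen-presenting cell.

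Values are on the log2 scale of the deposited table, and differences are knockout minus wild type with standard errors (SE) from limma. A call means a Benjamini-Hochberg adjusted p under 0.05 over all 22626 probe sets that are not controls. Among these, 44 probe sets (0.194%) were called. Hdac6 itself read 7.54, 7.86 and 7.64 in the knockout arrays, against 8.54, 8.23 and 8.42 in the wild-type arrays, with no overlap. Its difference of -0.71 (SE 0.11) had an adjusted p of 0.0875 in limma and was not called. The position of its probes relative to the deletion is not known here. Foxp3, the defining transcription factor of these cells, averaged 10.32 ± 0.12 in the knockout and 10.26 ± 0.06 in wild type (SD, n = 3 each). Il2ra, which encodes CD25, averaged 9.44 in the knockout and 9.43 in wild type. Genes of plasma cells, the antibody-secreting cells, were higher in the knockout for 8 of 8 measured markers, with 1 of them called. Their summed linear level was 35627 to 39282 in the knockout arrays and 14353 to 19411 in the wild-type arrays. This sum rested mostly on the 2 brightest genes, Igha (1.81, SE 0.14), which was the one called, and Jchain (0.58, SE 0.14). Over the 8 markers the differences ran from 0.13 to 1.81, with a median of 0.61. The part of plasma cell genes in the results below was not tested. Of the other marker lists, 6 of 8 regulatory T cell genes, 5 of 10 B cell genes, 5 of 12 myeloid and dendritic cell genes, 2 of 8 CD8 T and natural killer cell genes and 1 of 3 red blood cell genes were higher in the knockout, with 0 called. Sizes were uneven within these lists. The B cell genes Ms4a1 (-1.13, SE 0.29) and Spib (-0.94, SE 0.24) and the granzyme gene Gzma (-1.03, SE 0.25) lay below wild type in every knockout array. They were picked out after their values were seen, and 18.6% of all genes had groups without overlap by their brightest probe set. In each of the B cell and the CD8 T and natural killer cell lists 3 genes had an unadjusted p under 0.05 in limma. Of all probe sets 10.6% fell under it. The listed genes under it went in both directions. Vpreb3 (0.48, SE 0.14) and Cd8a (0.25, SE 0.08), both with a mean below 6, lay above wild type in every knockout array. Cd8b1 (-0.37, SE 0.09) lay below it in every knockout array. The part of these cell types was not tested either. In bulk samples, fewer cells of a type and less RNA per cell cannot be told apart.

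The 7 genes showed small differences between the genotypes. Of the 17 probe sets, 11 were higher and 6 lower in the knockout, and 0 were called. At an unadjusted p under 0.05 there were also 0 of 17, where 10.6% of all probe sets fell under it. Differences ranged from -0.12 for a Dctn1 probe set to 0.19 for a Dynll1 probe set. Their median was 0.03, against -0.0012 over all probe sets tested. The balance of signs was not stable. Without knockout replicate 3 there were 7 higher and 10 lower, with a median of -0.01. Leaving out any other array gave 9 to 12 higher, with 9 when wild type replicate 3 was left out. Array weights gave 9 higher and quantile normalization 13. The median was 0.07 without knockout replicate 2. The median size of a difference regardless of sign was 0.05 for the members and 0.09 over all probe sets, and 17 of 17 members lay below 0.25, as did 88.8% of all probe sets. The smallest adjusted p among them was 0.590.

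A missed threshold does not show that the levels were equal, and the intervals set how large a difference these arrays leave possible. Taken over the 17 probe sets, the 95% intervals ran from -0.36 at the lowest to 0.59 at the highest. The widest were those of Stmn1, and the narrowest were those of a Map4 and a Dctn1 probe set. Arrays of 1 genotype differed by a median residual SD of 0.15 for the member probe sets and 0.12 for all probe sets.

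**Figure D1:**
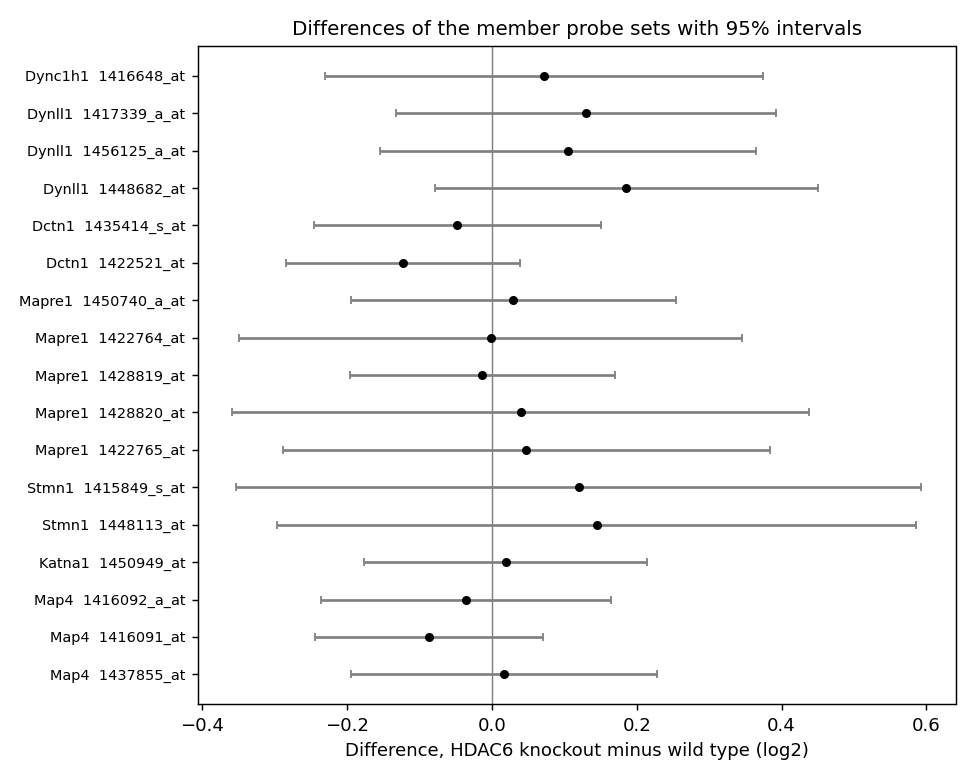
Each row is 1 probe set of the 7 genes, the point its log2 difference (HDAC6 knockout minus wild type, 3 arrays each) and the bar the 95% interval from limma. All 17 intervals cover 0, the points lie between -0.12 and 0.19, and the Stmn1 bars are the longest.

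The dynein subunits among the 7 genes were both slightly higher on average in the knockout, with overlapping groups. Dync1h1 encodes the heavy chain that hydrolyses ATP and takes the steps. The single probe set read 10.32, 10.57 and 10.69 in the knockout arrays, against 10.34, 10.36 and 10.66 in the wild-type arrays. In each genotype replicate 3 read highest and replicate 1 lowest, and the difference was 0.07 (SE 0.13, adjusted p = 0.886 in limma).

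Dynll1 encodes the small light chain LC8, which holds dynein intermediate chains together and also binds many proteins outside the motor. Its probe set 1417339_a_at read 12.25, 12.23 and 12.13 in the knockout arrays, against 11.97, 12.31 and 11.93 in the wild-type arrays. Probe set 1456125_a_at read 12.19, 12.11 and 12.07 in the knockout arrays, against 11.92, 12.25 and 11.88 in the wild-type arrays. Probe set 1448682_at read 11.91, 11.95 and 11.93 in the knockout arrays, against 11.63, 11.99 and 11.60 in the wild-type arrays. In all 3 probe sets the knockout arrays lay close together, below wild type replicate 2 and above the other wild-type arrays. The SD over 3 arrays was 0.02 to 0.06 in the knockout and 0.20 to 0.22 in wild type.

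The Dynll1 differences were 0.13, 0.11 and 0.19, with SEs of 0.11 each, and the adjusted p in limma was lowest for 1448682_at, at 0.623. Without wild type replicate 2 the differences were 0.25, 0.22 and 0.31, and the smallest adjusted p in limma was 0.349. The groups then no longer overlapped, which follows from the order of arrays given above and adds no evidence. Without wild type replicate 3 the differences were 0.06, 0.04 and 0.12. The size of the Dynll1 difference thus depended on single wild-type arrays, and it missed the threshold with or without each of these 2. Dynll2, which encodes a near-identical light chain, differed by 0.0086 (SE 0.10) and 0.17 (SE 0.08) in its 2 probe sets, neither called.

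Dctn1 encodes p150Glued, the dynactin arm that binds both dynein and the microtubule. It was the 1 gene of the 7 with all its probe sets lower in the knockout. Probe set 1422521_at read 8.42, 8.47 and 8.39 in the knockout arrays, against 8.62, 8.51 and 8.52 in the wild-type arrays. Every knockout array lay below every wild-type array here, by a narrow margin, and the difference was -0.12 (SE 0.07, 95% interval -0.28 to 0.04, adjusted p = 0.590 in limma). This was 1 of 17 member probe sets without overlap between the genotypes, where 17.2% of all probe sets showed none. The second probe set, 1435414_s_at, read 9.53, 9.72 and 9.75 in the knockout arrays, against 9.70, 9.78 and 9.66 in the wild-type arrays. These groups overlapped, and the difference was -0.05 (SE 0.08). The suffix of that probe set marks probes that match more than 1 transcript, so it can carry signal from elsewhere.

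Mapre1 encodes EB1, which rides on growing plus ends and recruits other proteins there, dynactin's p150Glued among them. Its 5 probe sets gave differences between -0.01 and 0.05, and all 5 groups overlapped. The brightest, 1450740_a_at, read 10.81, 10.62 and 10.90 in the knockout arrays, against 10.64, 10.83 and 10.77 in the wild-type arrays, a difference of 0.03 (SE 0.10, 95% interval -0.19 to 0.25, adjusted p = 0.946 in limma). Probe set 1428819_at varied least, from 7.49 to 7.67 over all 6 arrays. Probe set 1422764_at read 9.10, 8.73 and 8.52 in the knockout arrays, against 8.82, 8.86 and 8.67 in the wild-type arrays. It had the same mean of 8.78 in both genotypes, with a wider spread in the knockout (SD 0.29) than in wild type (SD 0.10). The 2 dimmest probe sets, 1428820_at and 1422765_at, read between 4.19 and 5.06, where values of this kind of array are compressed. The probe sets did not share an order of arrays: knockout replicate 2 was the lowest array for 1450740_a_at and 1428820_at and the second highest for 1428819_at.

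Stmn1 encodes stathmin, which binds free tubulin dimers and promotes the shrinking of microtubules, and dividing cells are known for high levels of it. It was the most variable gene of the 7. Probe set 1415849_s_at read 10.68, 10.40 and 10.75 in the knockout arrays, against 10.90, 10.46 and 10.11 in the wild-type arrays. Probe set 1448113_at read 7.36, 7.06 and 7.33 in the knockout arrays, against 7.44, 7.18 and 6.70 in the wild-type arrays. Both the highest and the lowest array of each probe set were wild type, replicate 1 at the top and replicate 3 at the bottom. The brighter one, 1415849_s_at, carries the suffix for probes that match more than 1 transcript, as does Dynll2 1418258_s_at. The ranges over 6 arrays were 0.80 and 0.74, where the median range over all probe sets was 0.34.

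The Stmn1 differences were 0.12 (SE 0.20, adjusted p = 0.877) and 0.14 (SE 0.19, adjusted p = 0.834) in limma. Without wild type replicate 3 they were -0.07 and -0.06, and without wild type replicate 1 they were 0.33 and 0.31, none called. The sign of the Stmn1 difference thus rested on wild type replicate 3.

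Genes of cell division were set beside Stmn1 array by array. The mean over 29 such genes was 8.60, 8.24 and 8.56 in the knockout arrays, against 8.43, 8.34 and 7.98 in the wild-type arrays. Wild type replicate 3 was the lowest array for both Stmn1 probe sets and for 25 of the 29 genes. Knockout replicate 2 was second lowest for both Stmn1 probe sets and for the mean of the division genes. At the top the order differed, since wild type replicate 1 was the highest array for Stmn1 and lay below knockout replicates 1 and 3 for the division genes. Of the 29 genes 26 were higher and 3 lower in the knockout, with a median of 0.23 and 0 called, and Mcm6 (0.39, SE 0.13, adjusted p = 0.361), Aurka (0.32, SE 0.14) and Bub1b (0.33, SE 0.16) had the smallest p. The median was 0.06 without wild type replicate 3 (24 of 29 higher), 0.15 without knockout replicate 1 (25 higher) and 0.40 without knockout replicate 2 (28 higher). The part of cell division in the Stmn1 values was not tested.

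**Figure D2:**
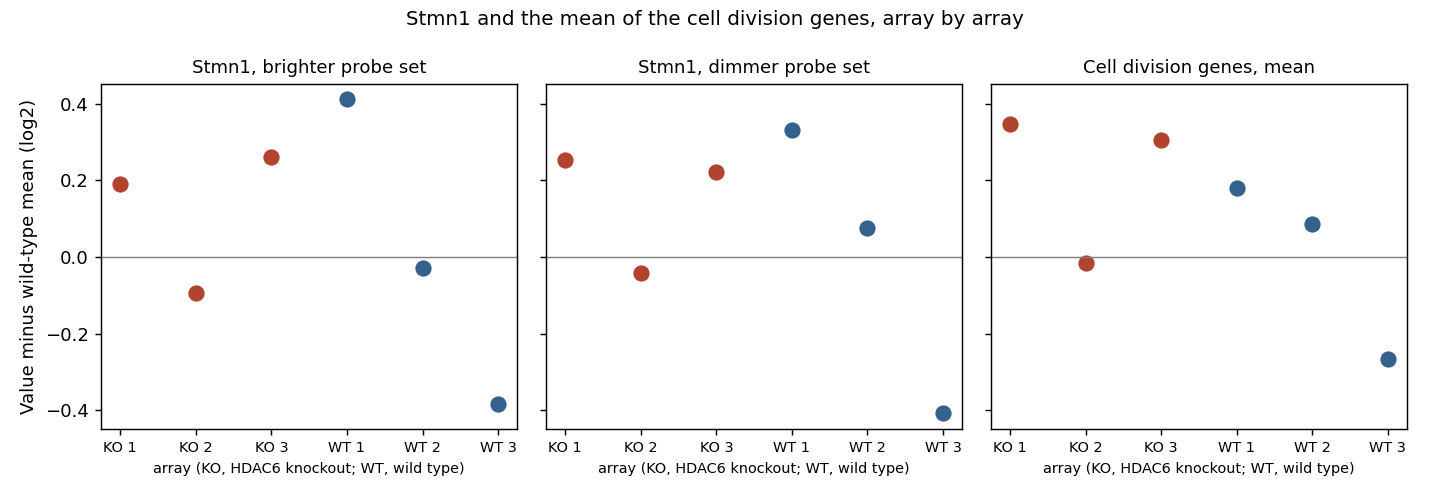
The vertical axis is the log2 value minus the wild-type mean for each of the 6 arrays (knockout replicates to the left in red, wild-type replicates to the right in blue), for the Stmn1 probe sets and for the mean of 29 cell division genes. Wild type replicate 3 is the lowest point in every panel, at -0.38, -0.41 and -0.27, and knockout replicate 2 the second lowest.

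Katna1 encodes the catalytic subunit of katanin, an ATPase that cuts microtubules. The single probe set read 8.88, 8.63 and 8.75 in the knockout arrays, against 8.72, 8.73 and 8.75 in the wild-type arrays. The wild-type arrays lay within the range of the knockout arrays, with an SD of 0.13 in the knockout and 0.02 in wild type. The difference was 0.02 (SE 0.08, 95% interval -0.18 to 0.21, adjusted p = 0.962 in limma).

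Map4 encodes the widespread microtubule-associated protein that binds along the lattice and stabilises it. Probe set 1416092_a_at read 8.52, 8.64 and 8.58 in the knockout arrays, against 8.73, 8.63 and 8.49 in the wild-type arrays, a difference of -0.04 (SE 0.08). Probe set 1416091_at read 7.831, 7.901 and 7.948 in the knockout arrays, against 8.004, 7.995 and 7.942 in the wild-type arrays, a difference of -0.09 (SE 0.07, 95% interval -0.24 to 0.07, adjusted p = 0.698 in limma), or -0.06 without knockout replicate 1. For 1416091_at knockout replicate 3 lay just above the lowest wild-type array, which was all that kept the groups from separating. The dimmest probe set, 1437855_at, read 2.63 to 2.92 over the 6 arrays, near the bottom of the scale, so it says little of the transcript.

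**Figure D3:**
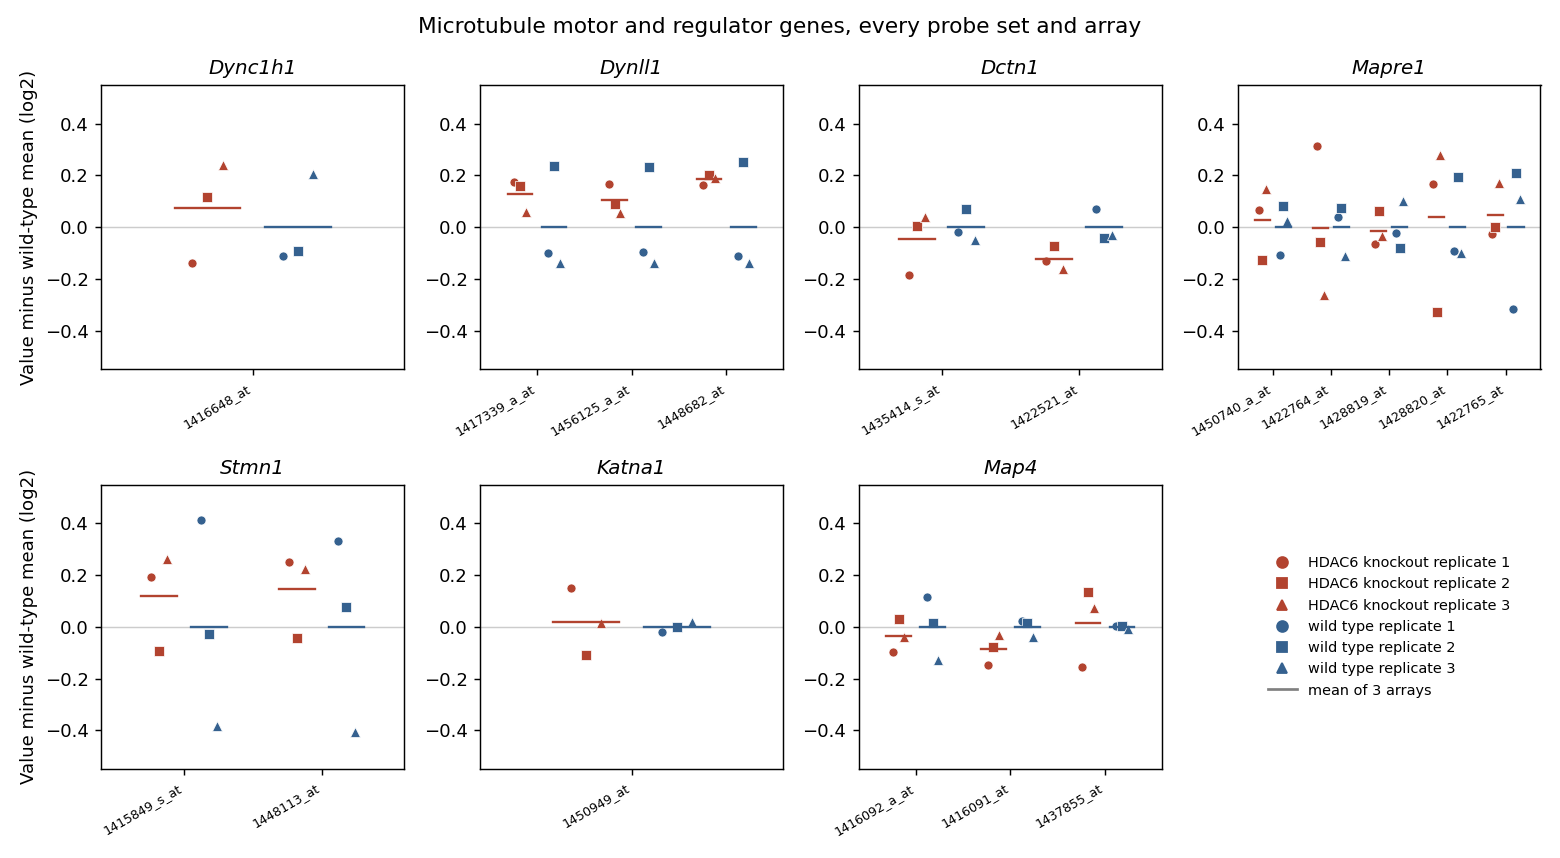
Each panel is 1 gene and each column 1 probe set, with the log2 value of every array minus that probe set's wild-type mean; symbols mark replicate numbers, red the HDAC6 knockout (left) and blue wild type (right), and short lines the means of 3 arrays. Points of the genotypes overlap in every column except Dctn1 1422521_at, and the Stmn1 wild-type points reach from -0.41 to 0.41.

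Each gene was also set against 7130 other genes with a mean of at least 6 for likeness of its 6 array values, by the root-mean-square difference after centring each profile on its own mean. The measure describes these arrays alone, and close matches arise easily over 6 values. For Dync1h1 the closest were Ubr4 (0.014) and Slc9a3r2 (0.016). For Dynll1 they were Hsd3b7 (0.040) and Stard5 (0.049), for Dctn1 2700097O09Rik (0.011) and Tiprl (0.029), and for Mapre1 Blvra (0.027) and Tssc4 (0.027). For Katna1 they were Adar (0.020) and Pygb (0.024), and for Map4 Fbxw9 (0.022) and Rabl3 (0.029). For Stmn1 they were Cenpa (0.078) and Akap10 (0.083). The measure is not scaled by a gene's own spread, which was widest for Stmn1, so its size is not compared between the 7 genes.

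The rest of the motor and regulator machinery was described with the brightest probe set of each gene, in lists that contain the 7 genes too. Across the 8 lists of microtubule proteins 0 genes were called, where 0.169% of all genes were by their brightest probe set, and 18.6% of all genes had groups without overlap. Of 9 measured dynein subunits 6 were higher and 3 lower (median 0.02, against 0.0019 over all genes), or 3 higher without knockout replicate 1. Dync1i2, an intermediate chain that ties the motor to dynactin, read 8.99, 8.86 and 8.90 in the knockout arrays, against 9.12, 9.18 and 9.02 in the wild-type arrays. Its groups did not overlap, and the difference was -0.19 (SE 0.08, adjusted p = 0.427 in limma). The light chain gene Dynlt1f differed by -0.37 (SE 0.23) and the intermediate chain gene Dync1i1 by 0.13 (SE 0.10), the second at values near 3. The Dynlt1f probe set, 1428117_x_at, has a suffix that marks probes able to bind other transcripts, as have those of Kif2c and Ttll1 below. The listed genes Dynlt1a, Dynlt1b and Dynlt1c had no probe set annotated to them alone.

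Dynactin subunits split evenly, with 5 of 10 higher and 5 lower, or 3 higher without knockout replicate 2. Dctn5, a subunit of the pointed end, differed by 0.24 (SE 0.14). The capping protein genes Capza2 (-0.08, SE 0.06) and Capzb (-0.05, SE 0.06) were lower without overlap between genotypes. Among 7 adaptors and regulators of dynein 3 were higher and 4 lower, with the cargo adaptor gene Bicd2 at -0.18 (SE 0.09), the kinetochore adaptor gene Spdl1 at 0.25 (SE 0.19) and Nde1 at 0.09 (SE 0.09).

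Of 12 plus-end tracking genes 7 were higher and 5 lower. Clasp2, which encodes a protein that stabilises growing ends, had the lowest p of this list. It read 8.08, 8.10 and 7.79 in the knockout arrays, against 8.57, 8.56 and 8.32 in the wild-type arrays, a difference of -0.49 (SE 0.11, adjusted p = 0.195 in limma). All knockout arrays lay below all wild-type arrays for Clasp2. Of Mapre1's paralogues, Mapre2 differed by -0.20 (SE 0.09) in its brightest probe set and by 0.39 (SE 0.11), -0.16 and -0.05 in the others, so its probe sets disagreed in sign. Mapre3 differed by 0.22 (SE 0.13), at a mean of 5.36, below the mean of 6 used to filter dim signals.

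Of 11 severing and depolymerising genes 8 were higher and 3 lower. Kif2a, a kinesin that takes microtubule ends apart, read 8.34, 8.32 and 8.33 in the knockout arrays, against 8.53, 8.45 and 8.47 in the wild-type arrays, without overlap and with a difference of -0.16 (SE 0.06, adjusted p = 0.442 in limma). Its mitotic relative Kif2c (0.31, SE 0.15) and the AAA ATPase gene Fignl1 (0.30, SE 0.14) were at the upper end of the list. Of 8 lattice-binding genes 3 were higher and 5 lower, or 6 higher without knockout replicate 1 and 5 higher when wild type replicate 3 was left out. Map7, a partner of kinesin-1, differed by 0.19 (SE 0.07), Map6 by 0.19 (SE 0.14) and Map1b by -0.15 (SE 0.09). The Map1b probe set was dim, with a mean of 4.06.

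Most kinesins carry cargo the opposite way to dynein, and of 16 measured transport kinesins and light chains 10 were higher and 6 lower, or 6 higher without knockout replicate 3. Kif13a, a motor of endosomal cargo, read 5.53, 5.45 and 5.49 in the knockout arrays, against 5.11, 5.05 and 5.15 in the wild-type arrays. Its difference of 0.39 (SE 0.07, adjusted p = 0.101 in limma) was the nearest to the threshold after Hdac6 among the microtubule lists in the main setting. Its mean of 5.30 lay below the mean of 6 used to filter dim signals. The adjusted p in limma was 0.0763 with array weights and 0.149 with trend and robust eBayes settings. Under the latter Clasp2 (0.101) and Kif5b (0.109) were nearer. Kif5b, the heavy chain of conventional kinesin, read 9.93, 9.84 and 9.95 in the knockout arrays, against 9.65, 9.67 and 9.66 in the wild-type arrays, a difference of 0.24 (SE 0.07, adjusted p = 0.247 in limma). The groups did not overlap for either kinesin gene. Kif3a, a subunit of kinesin-2, differed by -0.42 (SE 0.17) with overlapping groups, at a mean of 5.96. Of 8 measured enzymes that modify tubulin 2 were higher and 6 lower, or 1 higher without knockout replicate 3. The 6 include Hdac6, the deleted gene itself. The listed genes Atat1, Ttll4, Ttll5, Ttll7 and Vash1 had no probe set annotated to them alone. Hdac6 was at the low end, with the glutamylase subunit gene Ttll1 at -0.22 (SE 0.08) and the deglutamylase gene Agtpbp1 at -0.13 (SE 0.07), both without overlap.

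**Figure D4:**
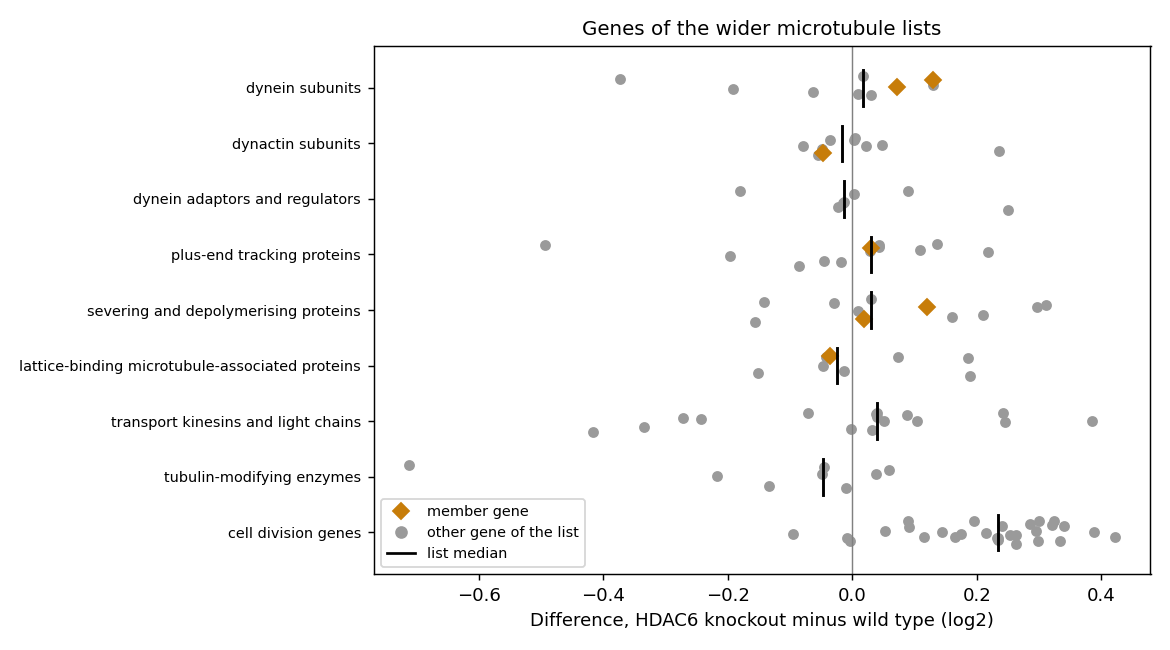
Each point is 1 gene by its brightest probe set, at its log2 difference (HDAC6 knockout minus wild type, 3 arrays each), in rows by list; diamonds are the 7 genes described here, and vertical bars the list medians. The diamonds lie between -0.05 and 0.13, Hdac6 is the lowest point at -0.71, and the cell division list has its median at 0.23.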

How the data were processed

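Transcripts of magnetically separated CD4+CD25+ regulatory T cells were measured on 6 one-colour arrays, 3 from HDAC6 knockout and 3 from wild-type mice. Column-purified total RNA was amplified and biotin-labelled, per the labels' protocols. The authors deposited log2 values, which per the submitters' processing notes came from RMA (background correction, quantile normalization and probe-set summary); the log2 scale was read from the range of the values. RMA compresses dim and near-saturated signals. The number of arrays limits the precision, and no batch record or detection call was used.

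The 64 control probe sets were left out, leaving 22626. Names came from the platform annotation, updated by gene ID against a RefSeq table (GRCm38.p6), and 20380 probe sets carried 1 symbol. Limma 3.58.1 in R 4.3.3 (lmFit, eBayes, genotype as the only term) was run on all 22626 probe sets, named or not, two-sided, with Benjamini-Hochberg adjustment over all of them, and was tested on simulated data. In the lists a gene stands for its brightest probe set (highest mean over 6 arrays). Named were all probe sets of the 7 genes, Hdac6, the paralogues Dynll2, Mapre2 and Mapre3, and up to 3 genes per list with the smallest p; Foxp3 and Il2ra were given as markers. Beside these, the rule held 1 further gene, which is not reported here. The members and lists were chosen with earlier results of these data known. Alternatives were a replicate block, other normalizations, array weights, other eBayes settings, filters on dim signals, an unmoderated test, a threshold of 0.1, the mean of a gene's probe sets, and each array left out. Figures were drawn with matplotlib 3.10.9.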

Additional observations from a re-analysis of the deposited data

How the results depend on the processing

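Under all 15 alternatives 0 member probe sets passed the threshold (of 14 of the 17 where a filter on dim signals was used), and the smallest adjusted p of any was 0.349 (Dynll1 1448682_at without wild type replicate 2). Over all probe sets the count of 44 was 27 with the replicate number as a block, 147 with trend and robust eBayes settings, 86 with array weights, 0 with an unmoderated test and 121 at a threshold of 0.1, and 5 to 51 with 1 array left out; the cause was not tested. The deviations of same-numbered arrays from their genotype means correlated at 0.22, -0.09 and 0.10, and not every knockout array correlated best with its own number. With 3 arrays per genotype such deviations constrain each other. The correlations therefore cannot decide whether same-numbered arrays share more than a number. Hdac6 passed with trend and robust settings (-0.71, adjusted p = 0.0259). Small differences changed sign: with array weights Mapre1 1450740_a_at was -0.032, 1428819_at 0.026 and 1428820_at -0.11, Katna1 -0.023 and Dynll2 1418258_s_at -0.041. With quantile normalization Mapre1 1422764_at was 0.020 and 1428819_at 0.0077, and with median centring 1422764_at was 0.0011. Leaving out each array in turn, Dync1h1 ranged from -0.011 to 0.18, Dynll1 from 0.061 to 0.25 (1417339_a_at), 0.035 to 0.22 (1456125_a_at) and 0.12 to 0.31 (1448682_at), Dctn1 1435414_s_at from -0.090 to 0.021, Katna1 from -0.047 to 0.082 and Dynll2 1418258_s_at from -0.064 to 0.083. Mapre1 ranged from -0.030 to 0.11 (1450740_a_at), -0.16 to 0.13 (1422764_at), -0.053 to 0.037 (1428819_at), -0.079 to 0.22 (1428820_at) and -0.11 to 0.15 (1422765_at). Stmn1 ranged from -0.072 to 0.33 and from -0.059 to 0.31, Map4 from -0.10 to 0.022 (1416092_a_at), -0.11 to -0.056 (1416091_at) and -0.042 to 0.10 (1437855_at), and Il2ra from -0.045 to 0.12. Member probe sets without overlap numbered 2 with median centring and 1 to 4 with 1 array left out. The share over all probe sets was not taken under these settings, and smaller groups separate more easily. These counts therefore cannot be set against the 17.2% of all probe sets in the main setting. With fewer genes left by the filters, 4 of 7 (upper 60%) or of 6 (mean of at least 6) severing genes and 4 of 10 or of 9 kinesins were higher. The mean of a gene's probe sets gave each of the 7 genes the same sign and no call. Probe sets near the bottom of the scale, with 3 of 17 members below a mean of 6, carry little information on a difference.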
